A study of Mus musculus with 10 samples.

Results

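The genes described here encode the machinery that copies DNA and the regulators that start it at the G1/S boundary of the cell cycle. The list holds 47 genes, chosen by function and by platform symbol, and 42 of them were detected on at least 2 of 10 arrays (detection p under 0.05), among 16272 genes or unnamed probes tested. Each gene was read from the probe with the highest mean. Gmnn, Pola1, Prim1, Pole2 and Slbp had probes that were detected on 0 arrays, so no level is given for them.

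The samples were uteri of female CD-1 mice, an outbred stock, pooled within a litter and measured on Illumina bead arrays. Dams had been injected intraperitoneally with bisphenol A (BPA), an estrogenic plastics monomer, at 5 mg/kg per day, or with DMSO as vehicle, over gestation days 9 to 21. All offspring, in every group, were ovariectomised at 6 weeks of age, and injected at 8 weeks with estradiol (E2, 300 ng) or DMSO, with the uterus taken 6 h afterwards. Groups are named by in utero exposure and then by injection: vehicle-vehicle (2 arrays), vehicle-E2 (2 arrays), BPA-vehicle (3 arrays) and BPA-E2 (3 arrays). Each litter gave 1 vehicle-injected and 1 E2-injected pool. All vehicle-exposed arrays lay on slide 1 and all BPA-exposed arrays on slide 2, so a BPA effect and a slide effect cannot be told apart, while each E2 response was measured within 1 slide.

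Before DNA is copied, the origin recognition complex with Cdc6 and Cdt1 loads the MCM ring onto origins, and geminin limits that loading. Cyclin E with its kinase and the E2F transcription factors then drive entry into S phase, where Cdc45 and the GINS complex turn MCM into an active helicase and polymerases alpha, delta and epsilon synthesise DNA behind it. In the rodent uterus estradiol is known to drive a wave of DNA synthesis in the epithelium many hours after a dose, later than the time sampled here. In whole tissue, fewer cells of a cycling type and less RNA per cell cannot be told apart.

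Many of these genes are known targets of E2F, so their promoters were searched for it. In RefSeq (build GRCm38.p6), 38 of the 47 genes have a promoter window of 300 bases, from 250 before the annotated start to 50 after it. An E2F site, written as TTTGGCGC, TTTCCCGC, TTTCGCGC or TTTGCCGC on either strand, was found in the windows of 13 of 38 members (34.2%), against 2.6% of 27025 genes with a window and 1 of 25 mitosis genes (4%). The CHR element TTTGAA, known from promoters of mitotic genes, was found in 4 members (10.5%), against 18 mitosis genes (72%) and 20.2% of all genes. CCAAT, the letters of the CCAAT box, occurred in 22 members (57.9%), 22 mitosis genes (88%) and 41.1% of all genes. Motifs were counted on both strands, E2F sites on opposite strands may overlap, and windows of members had a median GC content of 63% against 52.7% over all genes. A match describes letters in a window and says nothing of binding. The windows below belong to members that differed between BPA-E2 and vehicle-E2, and all but Tk1 hold an E2F site, in capitals. They do not represent the members higher in that comparison. Of those, 6 had a site and 7 had a window without one, among them Pcna, Pold2 and E2f1, which are not shown. Windows follow annotated starts, and it was not checked that these are the main starts of the genes, E2f1 among them. A window without a match therefore does not show a promoter without a site. Tk1, the member that fell most with E2 after BPA, is shown as a window with no match.
Mcm3, chr1:20820263-20820562, minus strand: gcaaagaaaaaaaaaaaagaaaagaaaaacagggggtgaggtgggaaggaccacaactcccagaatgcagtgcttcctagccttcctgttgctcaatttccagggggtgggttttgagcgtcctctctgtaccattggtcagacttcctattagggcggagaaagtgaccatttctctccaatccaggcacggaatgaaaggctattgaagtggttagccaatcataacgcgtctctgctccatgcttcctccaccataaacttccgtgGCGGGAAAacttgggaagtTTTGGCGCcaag
Mcm5, chr8:75109259-75109558, plus strand: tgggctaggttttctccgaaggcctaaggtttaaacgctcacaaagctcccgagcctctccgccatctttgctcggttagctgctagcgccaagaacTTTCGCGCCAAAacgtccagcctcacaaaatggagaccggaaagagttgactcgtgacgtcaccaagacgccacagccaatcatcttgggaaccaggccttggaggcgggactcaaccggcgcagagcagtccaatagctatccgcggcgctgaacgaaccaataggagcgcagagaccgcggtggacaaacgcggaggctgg
Cdt1, chr8:122567765-122568064, plus strand: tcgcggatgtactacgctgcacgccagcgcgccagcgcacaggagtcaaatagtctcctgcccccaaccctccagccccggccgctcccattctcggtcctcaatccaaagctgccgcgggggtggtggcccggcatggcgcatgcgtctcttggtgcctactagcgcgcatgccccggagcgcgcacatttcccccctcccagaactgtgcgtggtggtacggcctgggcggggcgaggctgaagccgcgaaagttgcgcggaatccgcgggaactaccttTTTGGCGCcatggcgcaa
Pold1, chr7:44548766-44549065, minus strand: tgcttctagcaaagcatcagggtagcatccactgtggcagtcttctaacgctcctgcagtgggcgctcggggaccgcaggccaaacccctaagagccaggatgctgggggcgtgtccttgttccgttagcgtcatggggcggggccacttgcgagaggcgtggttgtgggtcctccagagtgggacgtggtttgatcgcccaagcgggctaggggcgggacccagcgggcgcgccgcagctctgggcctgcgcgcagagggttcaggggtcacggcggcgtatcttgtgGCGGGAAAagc
Pold3, chr7:100121453-100121752, minus strand: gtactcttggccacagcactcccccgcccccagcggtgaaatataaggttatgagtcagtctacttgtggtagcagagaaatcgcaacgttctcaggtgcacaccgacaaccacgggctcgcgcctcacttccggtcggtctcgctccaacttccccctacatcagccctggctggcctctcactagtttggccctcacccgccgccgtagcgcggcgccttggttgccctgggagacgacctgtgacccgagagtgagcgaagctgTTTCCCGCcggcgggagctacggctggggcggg
Tk1, chr11:117825965-117826264, minus strand: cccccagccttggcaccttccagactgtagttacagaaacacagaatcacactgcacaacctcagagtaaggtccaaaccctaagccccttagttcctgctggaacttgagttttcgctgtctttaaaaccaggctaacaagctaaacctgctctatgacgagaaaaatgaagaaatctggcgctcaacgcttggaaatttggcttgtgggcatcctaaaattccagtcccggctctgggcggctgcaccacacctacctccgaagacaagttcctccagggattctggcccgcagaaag

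The replication genes did not move as a block. After vehicle in utero, 9 of 42 members (21.4%, against 22.4% of all tested) were called, all lower 6 h after E2, led by the sliding clamp gene Pcna and the ligase Lig1. After BPA in utero, 6 were higher with E2, among them E2f1 and the helicase subunits Mcm3 and Mcm4, and 7 were lower, most of all thymidine kinase 1, Tk1 (31% of members called, against 29% of all tested). Under E2, 15 members were higher and 3 lower in BPA-exposed than in vehicle-exposed offspring (42.9%, against 31% of all tested), with the polymerase delta genes Pold1 and Pold2, the clamp gene and the licensing genes Cdc6 and Cdt1 the highest by fold. The vehicle-E2 group held the lowest group mean for 23 of 42 members (54.8%, against 18.9% of all tested), and BPA-E2 the highest for 19 (45.2%, against 33.5%). Averaged over the 42 genes, log2 intensity departed from the mean of the 4 groups by -0.17 on both vehicle-E2 arrays and by 0.02 to 0.08 on the other 8.

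**Figure D1:**
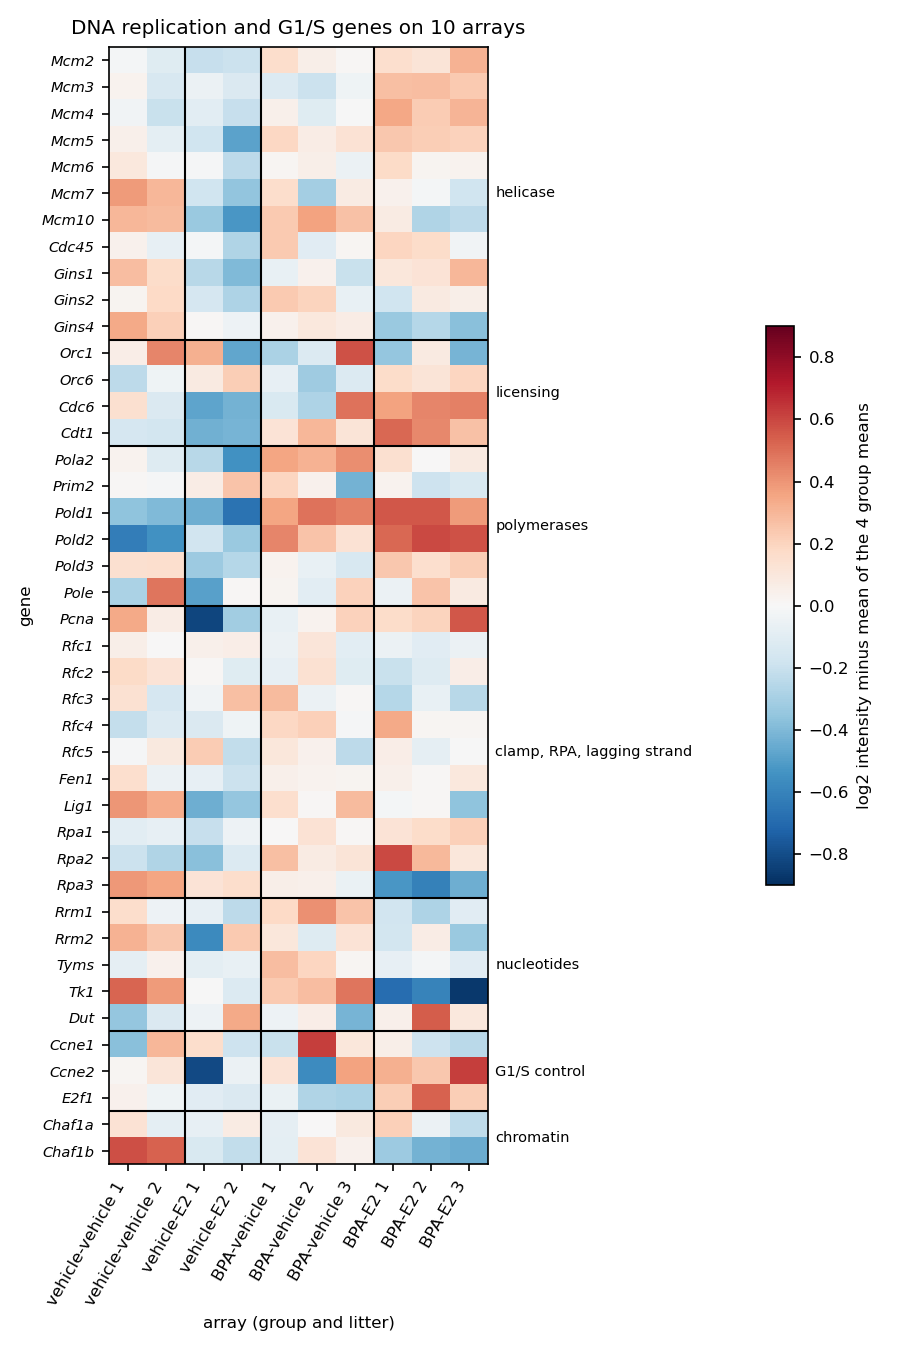
Normalized log2 intensity of the 42 detected members (rows, grouped by role) on the 10 arrays (columns, named by group and litter), as the difference from the mean of the 4 group means of each gene. Red is higher and blue lower. The vehicle-E2 columns are mostly blue, the Pold1 and Pold2 rows change from blue to red between vehicle-exposed and BPA-exposed arrays, and the Tk1 row is darkest on the BPA-E2 arrays.

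Levels below are normalized log2 intensities after background correction and quantile normalization, comparable between arrays for 1 probe but not between probes. Changes are log2 fold changes ± SE from limma, with p-values adjusted by Benjamini-Hochberg over all 16272 tested, and a gene was called at an adjusted p under 0.05. The arrays of a group are pools of different litters, with the number of animals in a pool not given in the sources used here, so p-values measure the spread between these pools, whose median SD for the members was 0.08 to 0.12 in the 4 groups.

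The ring of MCM subunits is the replicative helicase. Mcm4 read 11.29 and 11.12 on the vehicle-vehicle arrays, 11.23 and 11.11 with vehicle-E2, 11.37, 11.21 and 11.32 with BPA-vehicle and 11.67, 11.55 and 11.63 with BPA-E2. The 3 BPA-E2 arrays lay above all others. Mcm4 rose with E2 after BPA by 0.32 ± 0.08 (adjusted p = 0.0177) and its response after vehicle was -0.04 ± 0.10 (adjusted p = 0.833), with no call. Mcm3 gave 7.52 and 7.35 on the vehicle-vehicle arrays, 7.44 and 7.36 with vehicle-E2, 7.37, 7.30 and 7.46 with BPA-vehicle and 7.76, 7.77 and 7.73 with BPA-E2, again with every BPA-E2 array above the other 7. Its rise after BPA was 0.38 ± 0.08 (adjusted p = 0.00561), or 1.3-fold. Mcm5 read 10.40 and 10.26 on the vehicle-vehicle arrays, 10.17 and 9.87 with vehicle-E2, 10.53, 10.42 and 10.48 with BPA-vehicle and 10.59, 10.57 and 10.56 with BPA-E2. Here the vehicle-E2 arrays were the lowest of all and the BPA-E2 arrays the highest, 0.55 ± 0.10 (adjusted p = 0.00347) apart, while neither E2 response passed, at -0.31 ± 0.11 (adjusted p = 0.0758) after vehicle and 0.10 ± 0.09 (adjusted p = 0.47) after BPA. Mcm2 (8.74 to 9.26 over the 10 arrays, lowest on both vehicle-E2 arrays) was 0.39 ± 0.09 (adjusted p = 0.00933) higher in BPA-E2 than in vehicle-E2.

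Mcm7 was the ring subunit called lower with E2 after vehicle. It read 7.99 and 7.91 on the vehicle-vehicle arrays, 7.43 and 7.26 with vehicle-E2, 7.77, 7.31 and 7.69 with BPA-vehicle and 7.65, 7.60 and 7.43 with BPA-E2, highest on the vehicle-vehicle arrays, and fell with E2 after vehicle with a change of -0.61 ± 0.15 (adjusted p = 0.0231), with no call after BPA (-0.03 ± 0.13, adjusted p = 0.886). Where a gene had other detected probes, they were read from a fit of every probe, with p-values adjusted over all 23942. The other Mcm7 probe gave 0.18 ± 0.23 (adjusted p = 0.654) after vehicle, without a call. Mcm6 (9.12 to 9.52 over the 10 arrays) was called in no comparison from the probe used, but its other 2 probes were higher in BPA-E2 than vehicle-E2, at 0.47 ± 0.10 (adjusted p = 0.00869) and 0.55 ± 0.16 (adjusted p = 0.0343).

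Mcm10, which helps to open the loaded helicase, read 8.54 and 8.52 on the vehicle-vehicle arrays, 7.90 and 7.71 with vehicle-E2, 8.47, 8.60 and 8.50 with BPA-vehicle and 8.31, 7.97 and 8.00 with BPA-E2. All E2-injected arrays lay below all vehicle-injected ones. It fell by 0.72 ± 0.13 (adjusted p = 0.00451) with E2 after vehicle and with a change of -0.43 ± 0.10 (adjusted p = 0.0143) after BPA, and its other probe fell in both responses too, at -0.74 ± 0.19 (adjusted p = 0.0282) and -0.57 ± 0.16 (adjusted p = 0.0289). Gins1, a subunit of the GINS complex, read 7.62 and 7.51 on the vehicle-vehicle arrays, 7.10 and 6.95 with vehicle-E2, 7.28, 7.38 and 7.14 with BPA-vehicle and 7.44, 7.47 and 7.64 with BPA-E2. The vehicle-E2 arrays were lowest, and the vehicle-vehicle and BPA-E2 arrays overlapped at the top. Gins1 fell by 0.54 ± 0.11 (adjusted p = 0.0105) with E2 after vehicle. After BPA its mean was higher with E2, at +0.25 ± 0.09 (adjusted p = 0.0738), which did not pass. Gins4, of the same complex, read 10.85 and 10.72 on the vehicle-vehicle arrays, 10.52 and 10.47 with vehicle-E2, 10.55, 10.61 and 10.58 with BPA-vehicle and 10.17, 10.25 and 10.14 with BPA-E2. No 2 groups overlapped, and they lay, from high to low, from vehicle-vehicle through BPA-vehicle and vehicle-E2 to BPA-E2. Gins4 fell with E2 after either exposure, with a change of -0.29 ± 0.08 (adjusted p = 0.0361) after vehicle and -0.39 ± 0.07 (adjusted p = 0.00302) after BPA. Gins2 (6.92 to 7.43) and the helicase activator Cdc45 (6.75 to 7.25) were called in no comparison from the probes used, and 1 of the other 2 Gins2 probes was lower with E2 after BPA, at -0.44 ± 0.13 (adjusted p = 0.0388).

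Among licensing factors, Cdt1, the MCM loader, read 8.66 and 8.64 on the vehicle-vehicle arrays, 8.37 and 8.39 with vehicle-E2, 8.93, 9.10 and 8.92 with BPA-vehicle and 9.32, 9.24 and 9.07 with BPA-E2. The vehicle-E2 arrays were lowest, then vehicle-vehicle, and every BPA-exposed array lay above both. Cdt1 was 0.34 ± 0.10 (adjusted p = 0.0273) higher after BPA in vehicle-injected offspring and 0.83 ± 0.10 (adjusted p = 0.000328), or 1.78-fold, higher in E2-injected offspring. Cdc6, its partner in loading, read 7.17 and 6.89 on the vehicle-vehicle arrays, 6.55 and 6.59 with vehicle-E2, 6.88, 6.75 and 7.51 with BPA-vehicle and 7.39, 7.46 and 7.48 with BPA-E2. The BPA-vehicle arrays were spread widely, and only the vehicle-E2 and BPA-E2 arrays gave a call, 0.87 ± 0.20 (adjusted p = 0.0115) higher after BPA. Orc6, a subunit of the origin recognition complex, read 9.88 and 10.08 on the vehicle-vehicle arrays, 10.20 and 10.34 with vehicle-E2, 10.04, 9.80 and 9.99 with BPA-vehicle and 10.28, 10.23 and 10.31 with BPA-E2. Each E2-injected array exceeded each vehicle-injected one. It rose with E2 after BPA (0.33 ± 0.09, adjusted p = 0.025), the value after vehicle was 0.29 ± 0.11 (adjusted p = 0.1) with no call, and the difference of the responses was 0.04 ± 0.14 (adjusted p = 0.882). Orc1 was at the edge of detection, on 1 array of each group except BPA-E2, where it was on 0, and no call was made.

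DNA polymerase delta copies the lagging strand, and 2 of its subunit genes, Pold1 and Pold2, were higher after BPA with and without E2. Pold1, the catalytic subunit, read 8.62 and 8.59 on the vehicle-vehicle arrays, 8.54 and 8.32 with vehicle-E2, 9.34, 9.47 and 9.44 with BPA-vehicle and 9.55, 9.54 and 9.37 with BPA-E2. All 6 BPA-exposed arrays lay above the 4 vehicle-exposed arrays, with no overlap. Pold1 was 0.81 ± 0.10 (adjusted p = 0.000388) higher after BPA without E2 and 1.05 ± 0.10 (adjusted p = 9.13e-05), or 2.08-fold, higher with it. Pold2 read 8.55 and 8.62 on the vehicle-vehicle arrays, 9.00 and 8.84 with vehicle-E2, 9.61, 9.43 and 9.30 with BPA-vehicle and 9.69, 9.76 and 9.75 with BPA-E2, and its 4 groups did not overlap. It was 0.86 ± 0.10 (adjusted p = 0.000386) and 0.81 ± 0.10 (adjusted p = 0.000539) higher after BPA, and it also rose with E2 after BPA by 0.29 ± 0.09 (adjusted p = 0.0464). Pold3 followed another order, with 9.03 and 9.03 on the vehicle-vehicle arrays, 8.56 and 8.63 with vehicle-E2, 8.91, 8.82 and 8.74 with BPA-vehicle and 9.13, 9.03 and 9.10 with BPA-E2. It was lowest on the vehicle-E2 arrays and highest, at nearly equal values, on vehicle-vehicle and BPA-E2 arrays. With E2, Pold3 fell by 0.44 ± 0.09 (adjusted p = 0.00752) after vehicle and rose by 0.26 ± 0.07 (adjusted p = 0.0226) after BPA. Its BPA effect without E2 was -0.20 ± 0.08 (adjusted p = 0.0814), with no call. Pold4, the smallest subunit and not a member of the list, was lower in BPA-E2 than in vehicle-E2, at -0.55 ± 0.14 (adjusted p = 0.0187), and fell with E2 after BPA (-0.58 ± 0.13, adjusted p = 0.00922).

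Pola2, the accessory subunit of polymerase alpha, which starts each new strand, read 8.29 and 8.14 on the vehicle-vehicle arrays, 8.01 and 7.71 with vehicle-E2, 8.62, 8.58 and 8.68 with BPA-vehicle and 8.40, 8.26 and 8.34 with BPA-E2. The BPA-vehicle arrays exceeded all others and the vehicle-E2 arrays were the lowest. Pola2 was 0.41 ± 0.10 (adjusted p = 0.0177) higher after BPA without E2 and 0.48 ± 0.10 (adjusted p = 0.00874) higher with it, and fell by 0.29 ± 0.09 (adjusted p = 0.0465) with E2 after BPA. The large primase subunit gene Prim2 (7.01 to 7.69) and Pole, the catalytic subunit of the leading-strand polymerase (5.60 to 6.57), were called in no comparison, although the other Prim2 probe rose with E2 after BPA (0.65 ± 0.19, adjusted p = 0.0336).

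Pcna encodes the sliding clamp that tethers polymerases to DNA. Its probe, detected on every array, read 6.54 and 6.26 on the vehicle-vehicle arrays, 5.37 and 5.88 with vehicle-E2, 6.13, 6.23 and 6.41 with BPA-vehicle and 6.37, 6.40 and 6.76 with BPA-E2. Both vehicle-E2 arrays lay below the other 8, which overlapped, and they differed from each other by more than the arrays of other groups did. Pcna fell by 0.77 ± 0.20 (adjusted p = 0.0246) with E2 after vehicle, or 1.71-fold. After BPA its mean was higher with E2, at +0.25 ± 0.16 (adjusted p = 0.291), which did not pass. Lig1, which seals nicks between Okazaki fragments, read 9.07 and 9.01 on the vehicle-vehicle arrays, 8.24 and 8.33 with vehicle-E2, 8.83, 8.69 and 8.96 with BPA-vehicle and 8.66, 8.69 and 8.31 with BPA-E2. Vehicle-vehicle arrays were highest, and the vehicle-E2 and BPA-E2 arrays overlapped at the bottom. Lig1 fell by 0.76 ± 0.14 (adjusted p = 0.00587) after vehicle, and its response after BPA was -0.27 ± 0.12 (adjusted p = 0.113), with no call. The other 2 Lig1 probes, both detected on all 10 arrays, gave -0.47 ± 0.20 (adjusted p = 0.139) and -0.23 ± 0.17 (adjusted p = 0.419) after vehicle, neither called.

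The subunits of replication protein A (RPA), which coats single-stranded DNA, were called in both directions. Rpa3, the small subunit, read 10.34 and 10.31 on the vehicle-vehicle arrays, 10.08 and 10.11 with vehicle-E2, between 9.90 and 10.01 on the 3 BPA-vehicle arrays, and 9.43, 9.35 and 9.52 with BPA-E2. Its groups did not overlap and lay, from high to low, in the order vehicle-vehicle, vehicle-E2, BPA-vehicle and BPA-E2. Rpa3 fell with E2 after BPA with a change of -0.54 ± 0.07 (adjusted p = 0.000644), and BPA-exposed arrays were lower without E2 (-0.36 ± 0.08, adjusted p = 0.00889) and with it (-0.66 ± 0.08, adjusted p = 0.000375). Rpa2 read 7.06 and 6.98 on the vehicle-vehicle arrays, 6.87 and 7.13 with vehicle-E2, 7.52, 7.33 and 7.37 with BPA-vehicle and 7.85, 7.54 and 7.35 with BPA-E2, so that every BPA-exposed array was above every vehicle-exposed one. The BPA effect passed with E2, at 0.58 ± 0.15 (adjusted p = 0.0169), and not without it, at 0.39 ± 0.15 (adjusted p = 0.0777). Another Rpa2 probe, detected on 9 arrays, passed without E2, at 0.68 ± 0.20 (adjusted p = 0.0314), and not with it, at 0.40 ± 0.20 (adjusted p = 0.171). Rpa1, the large subunit, read 11.26 and 11.28 on the vehicle-vehicle arrays, 11.14 and 11.31 with vehicle-E2, 11.36, 11.48 and 11.36 with BPA-vehicle and 11.48, 11.52 and 11.57 with BPA-E2 and was 0.30 ± 0.08 (adjusted p = 0.025) higher in BPA-E2 than in vehicle-E2. None of the clamp loader genes Rfc1, Rfc2, Rfc3, Rfc4 and Rfc5 or of the flap nuclease gene Fen1 was called in any of the 5 comparisons from the probes used. For Rfc2 the changes were -0.20 ± 0.12 and -0.07 ± 0.10 with E2 and -0.16 ± 0.11 and -0.04 ± 0.11 with BPA, and 1 of its other 3 probes was lower with E2 after BPA, at -0.33 ± 0.10 (adjusted p = 0.0446).

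Of the genes that make DNA precursors, Tk1, the salvage kinase of thymidine, read 8.71 and 8.57 on the vehicle-vehicle arrays, 8.18 and 8.06 with vehicle-E2, 8.42, 8.46 and 8.67 with BPA-vehicle and 7.50, 7.58 and 7.32 with BPA-E2. The BPA-E2 arrays were lowest, the vehicle-E2 arrays next, and the vehicle-injected groups overlapped above them. Tk1 fell by 1.05 ± 0.10 (adjusted p = 0.000103), or 2.07-fold, with E2 after BPA and with a change of -0.52 ± 0.12 (adjusted p = 0.0172) after vehicle, and the change from vehicle-E2 to BPA-E2 was -0.65 ± 0.11 (adjusted p = 0.00264). The other Tk1 probe was called in none of these, at -0.56 ± 0.26 (adjusted p = 0.151) with E2 after BPA, -0.29 ± 0.31 (adjusted p = 0.589) after vehicle and -0.41 ± 0.29 (adjusted p = 0.339) between the E2-injected groups. Rrm1, the large subunit of ribonucleotide reductase, read 9.15 and 8.95 on the vehicle-vehicle arrays, 8.92 and 8.76 with vehicle-E2, 9.17, 9.40 and 9.25 with BPA-vehicle and 8.82, 8.72 and 8.90 with BPA-E2, with all E2-injected arrays below all vehicle-injected ones, and fell after BPA with a change of -0.47 ± 0.10 (adjusted p = 0.00663). The other Rrm1 probe gave -0.28 ± 0.13 (adjusted p = 0.14) for that response, without a call. Tyms, the thymidylate synthase gene, had group means of 9.99 (vehicle-vehicle), 9.94 (vehicle-E2), 10.18 (BPA-vehicle) and 9.95 (BPA-E2) and ran from 9.91 to 10.29 over the 10 arrays. The BPA-vehicle arrays were highest apart from an overlap with vehicle-vehicle, and the E2 responses were -0.05 ± 0.10 (adjusted p = 0.745) after vehicle and -0.23 ± 0.08 (adjusted p = 0.0674) after BPA. Tyms, Rrm2, the small subunit of ribonucleotide reductase (5.23 to 6.12), and the dUTPase gene Dut (5.68 to 6.64) were called in no comparison.

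E2f1, the transcription factor that activates many of these genes, read 8.09 and 8.02 on the vehicle-vehicle arrays, 7.95 and 7.93 with vehicle-E2, 8.00, 7.79 and 7.77 with BPA-vehicle and 8.28, 8.59 and 8.28 with BPA-E2. The BPA-E2 arrays lay above all others, which overlapped in part. E2f1 rose by 0.53 ± 0.10 (adjusted p = 0.00566), or 1.44-fold, with E2 after BPA and its response after vehicle was -0.12 ± 0.13 (adjusted p = 0.566), with no call. Ccne2, a cyclin E gene, read 5.57 and 5.66 on the vehicle-vehicle arrays, 4.74 and 5.50 with vehicle-E2, 5.68, 4.99 and 5.92 with BPA-vehicle and 5.87, 5.80 and 6.18 with BPA-E2 and was detected on 1 of 2 vehicle-E2 and 2 of 3 BPA-vehicle arrays. Its spread was wide, and the difference between BPA-E2 and vehicle-E2 did not pass (0.83 ± 0.29, adjusted p = 0.0609). Ccne1 (5.14 to 6.13) was called in no comparison. Chaf1b, a subunit of the chromatin assembly factor that deposits histones behind the fork, read 8.81 and 8.76 on the vehicle-vehicle arrays, 8.10 and 8.02 with vehicle-E2, 8.14, 8.36 and 8.27 with BPA-vehicle and 7.91, 7.81 and 7.79 with BPA-E2, with no overlap between groups. It fell with E2 with a change of -0.73 ± 0.09 (adjusted p = 0.00097) after vehicle and with a change of -0.43 ± 0.08 (adjusted p = 0.00375) after BPA, and was lower after BPA without E2 (-0.53 ± 0.09, adjusted p = 0.00202). Its partner Chaf1a (7.37 to 7.81) was called in none.

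**Figure D2:**
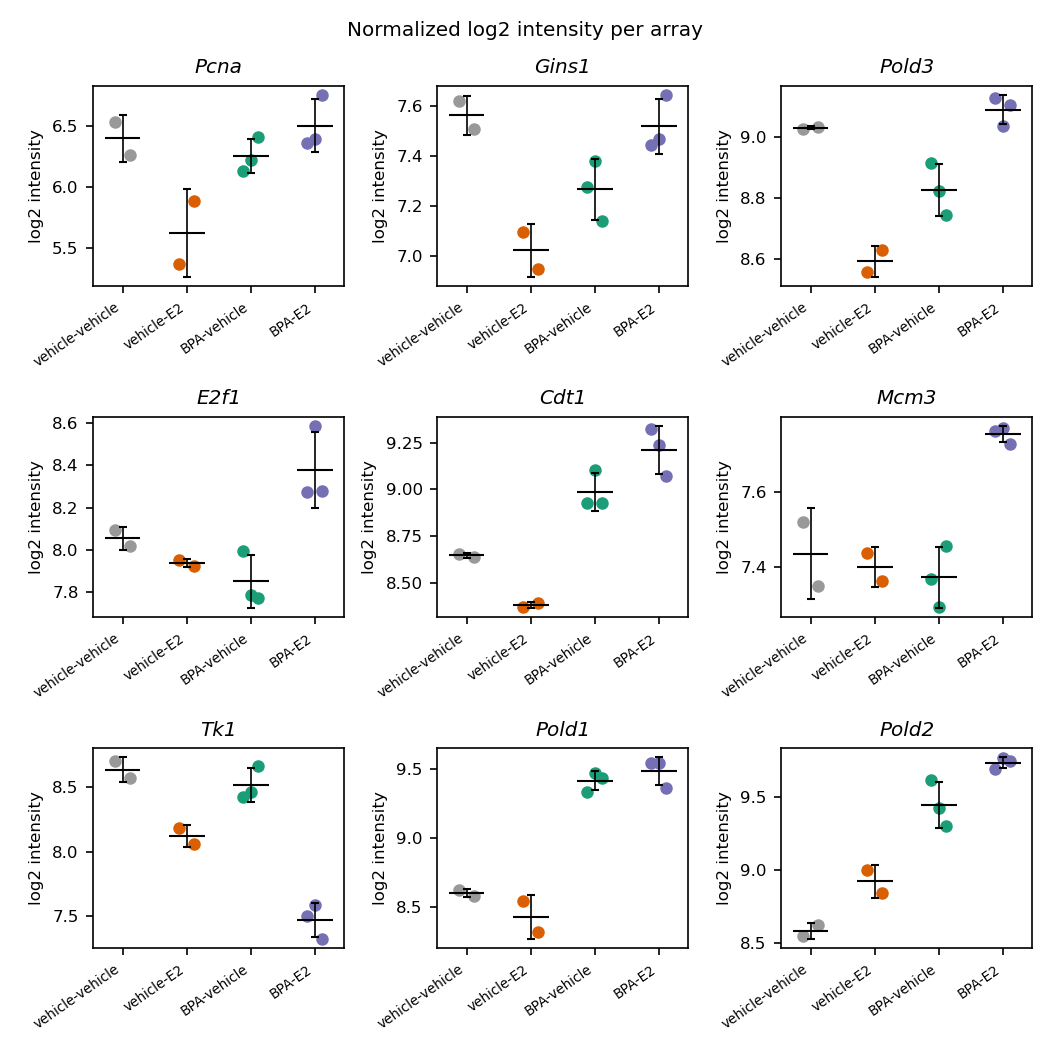
Normalized log2 intensity of 9 members on each array (points), with the mean (bar) and SD (whisker) of the 2 or 3 arrays of a group. The first 6 genes are those whose E2 responses differed between exposures, and Tk1, Pold1 and Pold2 are among the largest changes of the other comparisons. Vehicle-E2 is the lowest group for Pcna, Gins1, Pold3 and Cdt1, while E2f1 and Mcm3 stand out on the BPA-E2 arrays. The vertical axes differ and do not start at 0.

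The first comparison asked how the uterus of vehicle-exposed offspring responded to E2. Mcm7, Mcm10, Gins1, Gins4, Pold3, Pcna, Lig1, Tk1 and Chaf1b were lower, by 1.22- to 1.71-fold. No member was called higher by limma, where 2 were higher and 14 lower at an unadjusted p under 0.05. Of all genes tested, 22.4% were called, 11% higher and 11.4% lower, so the share of members called (21.4%) was near the background while all 9 calls ran one way. The median change of the 42 members was -0.19, beside 0.02 over all tested, and 34 of 42 changes were below 0. Each helicase subunit had a negative change, 11 of 11, and 4 were called. Calls for Mcm10, Pold3, Lig1 and Chaf1b were kept when any 1 of the 4 arrays was left out. Mcm7 and Gins4 lost theirs whichever of the 4 was left out (log2 change -0.70 to -0.52, adjusted p = 0.0515 to 0.115, and -0.36 to -0.23, adjusted p = 0.0528 to 0.167), Gins1 and Tk1 without vehicle-vehicle 1 or vehicle-E2 2 (-0.48 to -0.47, adjusted p = 0.061 to 0.0649, and -0.46 to -0.45, adjusted p = 0.089 to 0.0899), and Pcna without vehicle-vehicle 1 or vehicle-E2 1 (-0.64 to -0.52, adjusted p = 0.126 to 0.138). With litter as a block, Gins4 (adjusted p = 0.0796) and Tk1 (adjusted p = 0.0578) no longer passed. In a fit of these 4 arrays alone 3 members passed, Mcm10, Lig1 and Chaf1b.

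After BPA in utero, E2 split the members. Mcm3, Mcm4, Orc6, Pold2, Pold3 and E2f1 were higher, by 1.2- to 1.44-fold, and Mcm10, Gins4, Pola2, Rpa3, Rrm1, Tk1 and Chaf1b were lower, by 1.22- to 2.07-fold. The 13 called members were 31% of those tested, against 29% of all genes tested (15.3% higher and 13.7% lower). The median change was 0.02, beside 0.03 over all tested. Tk1, Chaf1b, Mcm10 and Gins4 fell after both exposures, and Pold3 was called in opposite directions. Mcm3, Gins4, Rpa3, Rrm1, Tk1, E2f1 and Chaf1b kept their calls when any 1 of the 6 arrays was left out. Pola2 lost its call whichever array was left out (-0.32 to -0.25, adjusted p = 0.0679 to 0.138), Pold2 without each array other than BPA-vehicle 1 (0.21 to 0.31, adjusted p = 0.0809 to 0.136), Pold3 without each array other than BPA-vehicle 1 and BPA-E2 2 (0.22 to 0.26, adjusted p = 0.0556 to 0.0728), Orc6 without BPA-vehicle 2 or each BPA-E2 array (0.26 to 0.35, adjusted p = 0.0523 to 0.0761), Mcm4 without BPA-vehicle 2, BPA-E2 1 or BPA-E2 3 (0.27 to 0.31, adjusted p = 0.0536 to 0.0612) and Mcm10 without BPA-E2 2 or 3 (-0.38 to -0.37, adjusted p = 0.0531 to 0.0539). With litter as a block Pold2 (adjusted p = 0.102) and Pold3 (adjusted p = 0.0594) were lost.

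**Figure D3:**
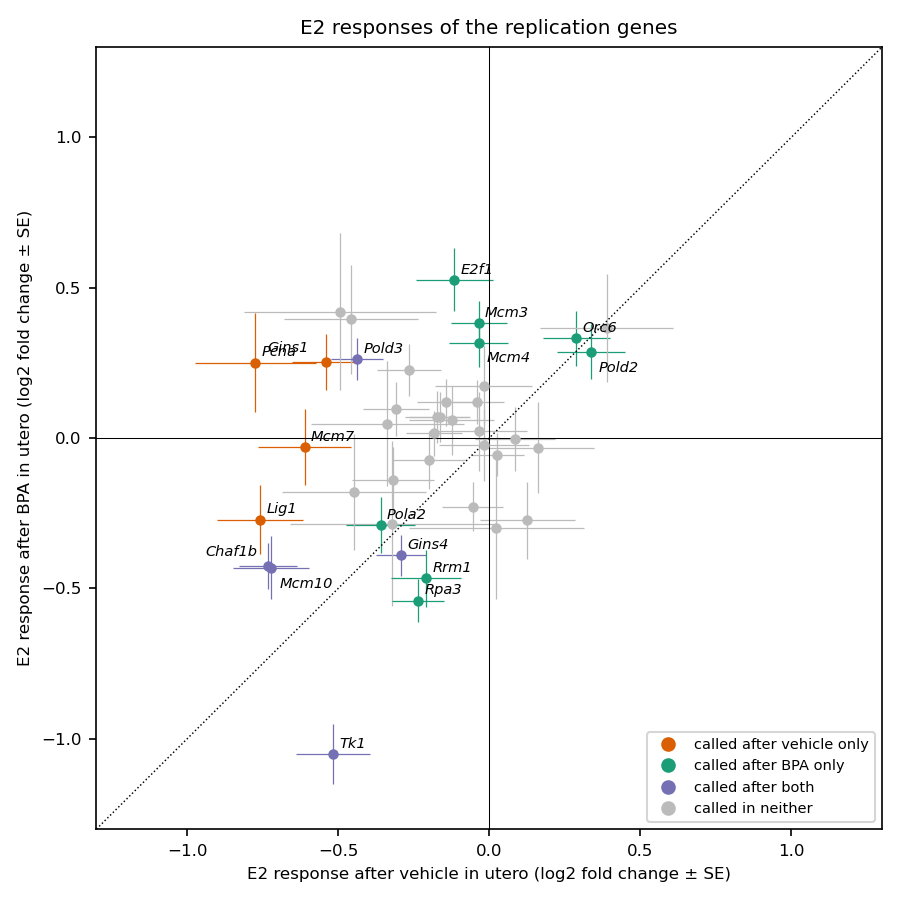
The E2 response of each member after vehicle in utero (horizontal axis) and after BPA in utero (vertical axis), as log2 fold changes with bars of 1 SE, on a dotted line of equal response. The axes rest on different arrays. Most points lie above the line, Pcna, Gins1 and Pold3 lie in the upper left, and Tk1 lies lowest, at -1.05 ± 0.10 after BPA.

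Whether the responses differed was tested as the difference between them. The response after BPA was the more positive for Pcna (1.03 ± 0.26, adjusted p = 0.0291), Gins1 (0.79 ± 0.15, adjusted p = 0.00758), Pold3 (0.70 ± 0.11, adjusted p = 0.00336), E2f1 (0.64 ± 0.16, adjusted p = 0.0313), Cdt1 (0.49 ± 0.14, adjusted p = 0.0421) and Mcm3 (0.42 ± 0.12, adjusted p = 0.0473). These include a clamp, a helicase activator, a polymerase subunit, a transcription factor, a loader and a ring subunit, so no role held them all. Limma called no member in the other direction, where 2 had an unadjusted p under 0.05 against 12 in this one. The 6 were 14.3% of the members, against 15.6% of all genes tested (7.87% more positive and 7.7% more negative), and the median difference was 0.19, beside -0.01 over all tested. With litter as a block 2 members passed, Gins1 and Pold3, and the other 4 had an adjusted p of 0.0574 to 0.102. Gins1 and Pold3 also kept their calls when any 1 of the 10 arrays was left out. Pcna lost its call without vehicle-vehicle 1, vehicle-E2 1, BPA-vehicle 1 or 2, or BPA-E2 3 (0.77 to 1.01, adjusted p = 0.0532 to 0.1), E2f1 without each vehicle-exposed array or BPA-vehicle 2 or 3 (0.60 to 0.68, adjusted p = 0.0628 to 0.095), Cdt1 without each array other than BPA-vehicle 2 and BPA-E2 3 (0.43 to 0.50, adjusted p = 0.0829 to 0.109), and Mcm3 without each array other than vehicle-vehicle 2 and BPA-vehicle 3 (0.33 to 0.45, adjusted p = 0.0803 to 0.149).

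Without E2, fewer members than the background share differed between the in utero exposures. Pold1, Pold2, Pola2 and Cdt1 were higher after BPA, by 1.26- to 1.82-fold, and Rpa3 and Chaf1b lower, by 1.28- and 1.44-fold. The 6 called members were 14.3% of those tested, against 31.1% of all genes tested (15.6% higher and 15.5% lower). The median change was -0.03, beside 0.02 over all tested. Limma called none of the 11 helicase genes, where 0 were higher and 3 lower at an unadjusted p under 0.05. Pold1, Pold2 and Chaf1b kept their calls when any 1 of the 5 arrays was left out. Cdt1 lost its call without either vehicle-vehicle array or BPA-vehicle 2 (0.28 to 0.35, adjusted p = 0.0717 to 0.108), Pola2 without vehicle-vehicle 2 or BPA-vehicle 3 (0.33 to 0.38, adjusted p = 0.0513 to 0.114), and Rpa3 without vehicle-vehicle 1 (-0.34, adjusted p = 0.0543).

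Under E2, 18 members differed between the exposures. Helicase genes Mcm2, Mcm3, Mcm4, Mcm5 and Gins1, the licensing genes Cdc6 and Cdt1, the polymerase genes Pola2, Pold1, Pold2 and Pold3, the clamp gene Pcna, Rpa1, Rpa2 and E2f1 were higher after BPA, by 1.23- to 2.08-fold. Gins4, Rpa3 and Tk1 were lower. The 18 called members were 42.9% of those tested, against 31% of all genes tested, and the 15 higher stand beside 15.6% of all tested that were higher and the 3 lower beside 15.4%. The median change was 0.21, beside 0.02 over all tested. Of the 11 members with an E2F site in the promoter window 6 were higher and 0 lower, and of the 23 with a window and no site 7 were higher and 2 lower. With E2 after vehicle these counts were 0 and 3 with a site and 0 and 4 without, beside 11% higher and 11.4% lower of all tested. With E2 after BPA they were 2 and 0, and 3 and 6 (15.3% and 13.7%). For the difference of the responses they were 3 and 0, and 2 and 0 (7.87% and 7.7%), and for BPA without E2 2 and 0, and 2 and 2 (15.6% and 15.5%). These sets are small, members without a window are left out, and the split by site was not tested. Mcm4, Mcm5, Cdt1, Pold1, Pold2, Pold3, Rpa3 and Tk1 kept their calls when any 1 of the 5 arrays was left out. Without vehicle-E2 1 the calls lost included Mcm2 (0.39, adjusted p = 0.0526), Pcna (0.62, adjusted p = 0.0564) and Rpa2 (0.45, adjusted p = 0.121), and without vehicle-E2 2 those of Mcm3 (0.31, adjusted p = 0.0805), Gins1 (0.42, adjusted p = 0.0587) and Pola2 (0.33, adjusted p = 0.0694). Cdc6 and E2f1 were lost without either (0.85 to 0.89, adjusted p = 0.0527 to 0.0626, and 0.43 to 0.45, adjusted p = 0.0789 to 0.0915), Gins4 without either or BPA-E2 3 (-0.33 to -0.28, adjusted p = 0.0509 to 0.089), and Rpa1 without vehicle-E2 1, BPA-E2 2 or BPA-E2 3 (0.21 to 0.30, adjusted p = 0.0604 to 0.17).

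**Figure D4:**
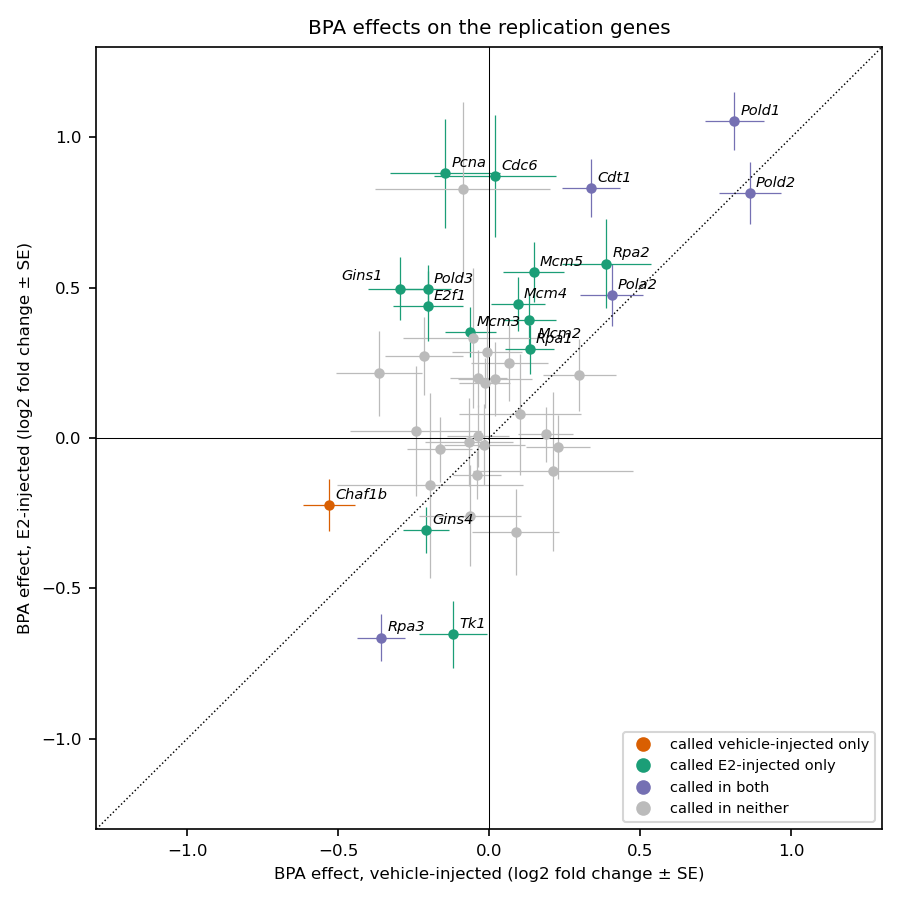
The BPA effect on each member in vehicle-injected offspring (horizontal axis) and in E2-injected offspring (vertical axis), as log2 fold changes with bars of 1 SE, on a dotted line of equal effect. The axes rest on different arrays. Pold1 and Pold2 lie far from 0 on both axes, Pcna and Cdc6 lie high on the vertical axis and near 0 on the horizontal one, and Rpa3 and Tk1 lie lowest.

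Mitosis genes, which act later in the cycle, were mostly lower on the BPA-E2 arrays. After BPA, 19 of the 20 measured were lower with E2 (median -1.08), against 7 lower and 6 higher of the 42 replication genes. Of all tested, 13.7% were lower and 15.3% higher. The mitotic regulator Cdc20 fell by 1.17 ± 0.06 (adjusted p = 3.39e-06), survivin, Birc5, with a change of -1.55 ± 0.09 (adjusted p = 6.99e-06) and the centromeric histone Cenpa with a change of -1.49 ± 0.07 (adjusted p = 1.87e-06). Kif20a, a mitotic kinesin named here after its value was seen, was the one without a call and was detected on 2 arrays, both BPA-E2. After vehicle 3 mitosis genes were lower and 1 higher, the spindle checkpoint gene Mad2l1 (0.50 ± 0.08, adjusted p = 0.00339), with a median of -0.17. Those calls were 20% of the mitosis genes, against 22.4% of all tested. Between BPA-E2 and vehicle-E2, 18 of 20 were lower (median -0.93), where 15 replication genes were higher, beside 15.4% of all tested that were lower and 15.6% higher. The group mean was lowest in BPA-E2 for 18 mitosis genes (90%) and for 12 replication genes (28.6%), against 27.7% of all tested. These are counts beside each other, and the difference between the lists was not tested.

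**Figure D5:**
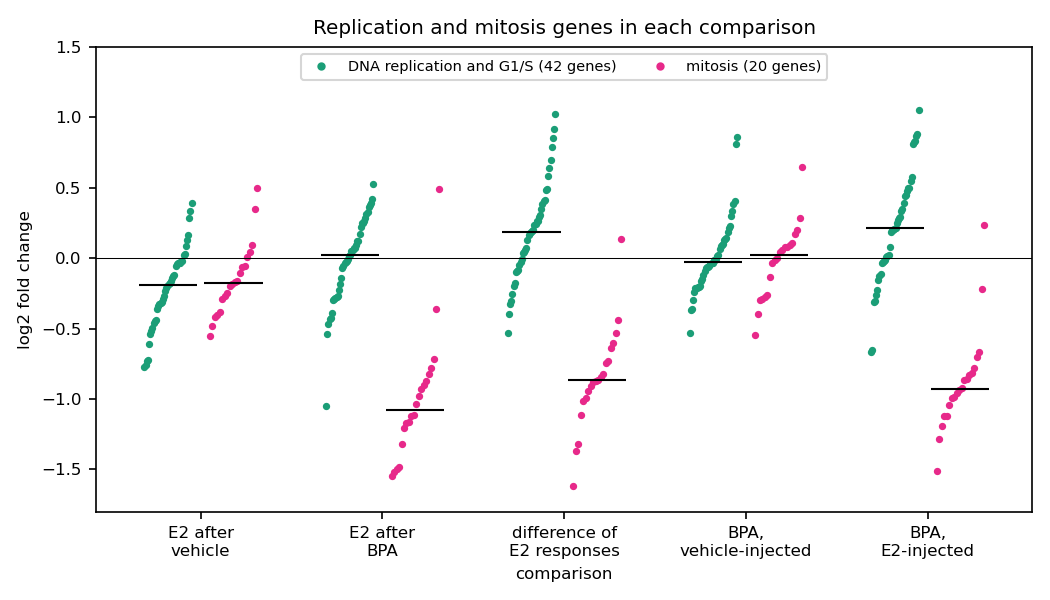
Log2 fold changes of the 42 replication and G1/S genes (green) and the 20 mitosis genes (pink) in each of the 5 comparisons, sorted within a list, with the median as a bar. The lists overlap for E2 after vehicle and for BPA without E2, and the mitosis median lies below the replication median in the 3 comparisons that hold BPA-E2 arrays.

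Other genes of the replisome, a list that leaves out the members, moved in both directions. Of 27 measured, 4 were higher and 4 lower with E2 after vehicle (29.6%, against 22.4% of all tested), and 3 and 4 after BPA (25.9%, against 29%). Dbf4, which activates the origin-firing kinase Cdc7, fell after BPA with a change of -0.60 ± 0.10 (adjusted p = 0.00276), and the histone chaperone subunit Supt16 with a change of -0.59 ± 0.08 (adjusted p = 0.000736). The replisome scaffold gene Wdhd1 fell after vehicle with a change of -0.52 ± 0.12 (adjusted p = 0.0179) and its responses differed by 0.65 ± 0.16 (adjusted p = 0.027). In the difference of the responses, 3 of the 27 were called more positive and 3 more negative (22.2%, against 15.6% of all tested), with a median of -0.01. With BPA, 7 were higher and 1 lower without E2 (29.6%, against 31.1% of all tested), and 6 and 5 with it (40.7%, against 31%). These counts include Orc2, Mcm9 and Ticrr, which were not detected in every group and are given no value.

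Among 15 measured genes of the E2F, retinoblastoma and Myc factors, 3 were higher and 2 lower with E2 after vehicle, and 1 was higher after BPA, E2f6, a repressive E2F (0.56 ± 0.08, adjusted p = 0.00134). The share called was 33.3% after vehicle and 6.67% after BPA, against 22.4% and 29% of all tested. Rbl1, the pocket protein p107, fell after vehicle with a change of -0.73 ± 0.15 (adjusted p = 0.00954). Myc was higher after BPA without E2 (0.83 ± 0.11, adjusted p = 0.000669) and with it (0.60 ± 0.11, adjusted p = 0.00374). Of 16 measured G1 cyclins, kinases and inhibitors, 5 were higher and 1 lower with E2 after vehicle, and 4 and 2 after BPA. That is 37.5% called after each exposure, against 22.4% and 29% of all tested. Cyclin D2, Ccnd2, rose after both, by 0.87 ± 0.12 (adjusted p = 0.00111) and 0.64 ± 0.09 (adjusted p = 0.00123). The kinase inhibitor gene Cdkn1c fell after vehicle with a change of -0.31 ± 0.08 (adjusted p = 0.0297) and rose after BPA by 0.89 ± 0.07 (adjusted p = 2.96e-05), and the responses differed by 1.20 ± 0.11 (adjusted p = 0.000159). The phosphatase Cdc25a, which activates cyclin E kinase, rose after BPA by 0.55 ± 0.14 (adjusted p = 0.0204). Among 9 chromatin assembly and maintenance genes, 1 was lower with E2 after vehicle and 1 after BPA (11.1% each, against 22.4% and 29% of all tested). The difference of the responses was called for 1 (11.1%, against 15.6%). With BPA, 0 were called without E2 (against 31.1%), and 2 were higher and 1 lower with it (33.3%, against 31%). Uhrf1 fell after vehicle with a change of -0.52 ± 0.10 (adjusted p = 0.00577) and was 0.61 ± 0.09 (adjusted p = 0.00113) higher in BPA-E2 than in vehicle-E2. The chaperone Asf1b fell after BPA with a change of -0.66 ± 0.16 (adjusted p = 0.0147).

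Markers of the cell types of the uterus also differed in level between the groups. Arrays of 1 group correlated at 0.992 to 0.994 across genes, and 43.6% to 46.6% of probes were detected on each. The uterine markers Hoxa10 and Hoxa11 were detected, and 5 of 6 ovarian markers were not. The summed linear intensity of the epithelial markers (7 of 8 detected, Epcam not) was 22084 to 22642 in vehicle-vehicle, 16140 to 16452 in vehicle-E2, 19037 to 21784 in BPA-vehicle and 8478 to 9102 in BPA-E2 arrays, and smooth muscle markers (6 of 6) gave 91009 to 91931, 79220 to 85632, 85656 to 90397 and 68908 to 72362 in that order. Stromal markers (8 of 8) summed to 47577 to 50755, 43482 to 43737, 44238 to 44908 and 32484 to 34972, macrophage markers (4 of 5, without Cd68) to 8732 to 8952, 4455 to 4823, 3561 to 3793 and 1754 to 1923, and neutrophil markers (4 of 5, without Ly6g) to 4393 to 4541, 1349 to 1415, 633 to 663 and 975 to 1015. Mast cell markers (5 of 5) summed to 3352 to 3449, 3123 to 3448, 2308 to 2446 and 4596 to 4752, and adipocyte markers (2 of 5, without Plin1, Fabp4 and Cfd) to 2063 to 2169, 1095 to 1116, 1783 to 1907 and 3937 to 4161. Endothelial markers (5 of 5) summed to 1584 to 1615, 1520 to 1676, 1574 to 1678 and 1766 to 1939. Lymphocyte markers (3 of 6 detected) were dim, at 207 to 240, 135 to 157, 140 to 202 and 222 to 241. Their median change was -0.52 with E2 after vehicle and 0.46 after BPA, and 3 of 3 were called with a more positive response after BPA (median difference 1.15). Calls were also more positive only for macrophage (3 of 4), neutrophil (2 of 4), mast cell (2 of 5), adipocyte (2 of 2) and endothelial (1 of 5) markers. Epithelial markers gave 1 more positive and 4 more negative of 7, stromal markers 0 and 5 of 8, and smooth muscle markers 0 and 1 of 6. Of all tested, 7.87% were called more positive and 7.7% more negative. A summed intensity follows its brightest markers, and markers of 1 list did not always agree. With E2 after BPA, 2 of 4 neutrophil markers were called higher and 1 lower, beside 15.3% and 13.7% of all tested. With BPA without E2, 1 of 7 epithelial markers was higher and 1 lower, beside 15.6% and 15.5%. The part of these cell type markers in the changes of the replication genes was not tested.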

How the data were processed

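Uterine RNA was measured on 10 Illumina bead arrays. TRIzol and an RNeasy Plus kit served for RNA purification and a MessageAmp kit for biotin labelling, per the labels' protocols. The deposited non-normalized table gives, per the file headers, a linear signal intensity and a detection p-value on each array for 45281 probes. The bead-summary software is not given in the sources used here. The authors also deposited a processed table of linear intensity with nearly equal distributions and an unstated method, used as an alternative only.

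The neqc function of limma 3.58.1 (R 4.3.3) corrected the background, inferred from the detection p-values, and quantile-normalized the signals, with an offset of 16 before log2. Probes detected at p under 0.05 on at least 2 arrays were kept (23942), and each symbol was read from its brightest probe, giving 12403 genes and 3869 unnamed probes. Of all probes, 34885 had 1 platform symbol, 18 several and 10378 none. A single limma model of 4 groups gave 5 two-sided comparisons, with Benjamini-Hochberg adjustment over 16272. The number of arrays, 2 or 3 in a group, limits the precision.

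Same-numbered arrays of 1 exposure share a litter by the labels and were treated as paired in an alternative, and their deviations from group means correlated at -0.0409 to 0.0222. The E2 responses took litter as a fixed block and the BPA effects as a random one (statmod 1.5.0, correlation 0.00993). Slide could not be a block. Alternatives also covered uncorrected background, cyclic loess, the authors' table, other detection filters, a variance trend with robust estimation, the compared groups alone, every probe tested, and each array left out. The script was tested on simulated data. Members, lists and tests were chosen with earlier results of these data known. Members were given array by array when called without overlap between groups, up to 8 per direction and comparison, with the brightest probe of each role, and other lists by up to 4 called genes per comparison. Promoter windows came from RefSeq. Figures used matplotlib 3.10.9.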

Additional observations from a re-analysis of the deposited data

Results flagged for a closer look

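The E2 responses after vehicle and after BPA in utero differed, by limma's test of the difference, for 6 members, each with the more positive response after BPA. These were 14.3% of the members, against 15.6% of all genes tested. With litter as a block, Gins1 and Pold3 kept their calls and Pcna, E2f1, Cdt1 and Mcm3 did not. The differences (log2, response after BPA minus response after vehicle) were 1.03 for Pcna, 0.79 for Gins1, 0.70 for Pold3, 0.64 for E2f1, 0.49 for Cdt1 and 0.42 for Mcm3. For Pcna, Gins1 and Pold3 the fall after vehicle was itself called, and for E2f1, Mcm3 and Pold3 the rise after BPA. Neither response of Cdt1 was called on its own, at -0.27 ± 0.11 (adjusted p = 0.107) after vehicle and 0.23 ± 0.09 (adjusted p = 0.083) after BPA. Each response was measured within 1 slide. Exposure and slide coincide, so a response that depends on exposure and one that depends on slide cannot be told apart.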

How the results depend on the processing

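Of 52 calls on single members over the 5 comparisons, 44 kept their side of the threshold with the replicate block, 51 without background correction, 50 with cyclic loess, 51 with the authors' table, 51 with a variance trend and robust estimation, 47 without a detection filter, 52 with detection on at least 5 arrays and 47 with every probe tested. In fits of the compared groups alone 36 of 46 were kept, and 24 of 52 held whichever array was left out. No called change reversed under these settings. The block lost Gins4 and Tk1 (E2 after vehicle), Pold2 and Pold3 (E2 after BPA) and Mcm3, Cdt1, Pcna and E2f1 (difference), and changed no other call. Members called higher with E2 after vehicle were 0, but 2 (Orc6 and Pold2) without background correction, with the authors' table and with a variance trend. Those called lower, 9, became 3 with the compared groups alone. For the difference of responses, 6 higher became 10 without background correction, with the authors' table and with a variance trend, and 2 with the replicate block. Lower calls there, 0, became 1 without background correction, with the authors' table or with detection on 5 arrays (Tk1 each time), and 2 with a variance trend (Tk1 and Rpa3). Members lower after BPA without E2, 2, became 4 without background correction, with the authors' table, with detection on 5 arrays or with a variance trend, and 5 with cyclic loess. When each array was left out in turn, E2 after vehicle gave 0 higher and 4 to 8 lower, E2 after BPA 2 to 6 higher and 5 to 7 lower, the difference 2 to 5 more positive and 0 more negative, BPA without E2 2 to 4 higher and 1 to 3 lower, and BPA with E2 9 to 15 higher and 2 to 3 lower. An array left alone in its group was assumed to vary like the others. The causes were not tested. Orc1 and Ccne2 lie near background and were not detected on every array, which limits what their values show.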

Other observations

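Genes that supply nucleotides, outside the replication list, were called higher more often than lower in 4 of the 5 comparisons. Of 20 measured, 7 were higher and 1 lower with E2 after vehicle (11% and 11.4% of all tested), 7 and 1 after BPA (15.3% and 13.7%), 13 and 0 with BPA without E2 (15.6% and 15.5%), and 11 and 0 with BPA under E2 (15.6% and 15.4%). At an unadjusted p under 0.05 limma gave 1 lower with BPA without E2 and 0 with it. The purine synthesis enzyme Gart rose by 0.63 ± 0.09 (adjusted p = 0.00158) after vehicle and by 0.31 ± 0.07 (adjusted p = 0.0146) after BPA, and the CTP synthase gene Ctps by 0.48 ± 0.09 (adjusted p = 0.00559) and 0.57 ± 0.07 (adjusted p = 0.000531). Mthfd2, a mitochondrial enzyme of folate metabolism, was 1.10 ± 0.08 (adjusted p = 1.96e-05) higher after BPA without E2, and Cad, which starts pyrimidine synthesis, 0.85 ± 0.12 (adjusted p = 0.000965). Umps, of pyrimidine synthesis, fell with E2 after BPA (-0.24 ± 0.08, adjusted p = 0.0468) and rose after vehicle (0.37 ± 0.09, adjusted p = 0.0229), a difference of -0.61 ± 0.12 (adjusted p = 0.0106). The BPA values rest on arrays of different slides.

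Of the members, 16 had more than 1 detected probe, and for none were 2 probes called in opposite directions. The other Rrm1 probe was higher after BPA without E2 (0.92 ± 0.14, adjusted p = 0.00165) and with it (0.88 ± 0.14, adjusted p = 0.0021), where the probe used gave 0.23 ± 0.11 and -0.03 ± 0.11 with no call. The values of the other probe come from a fit of every probe, and it was singled out after they were seen.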
